A study of Mus musculus with 2 samples.

Results

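The 10 genes described here carry out and control iron uptake, storage, export and sensing in mouse cells, and were followed by symbol, through their gene identifiers, among 43346 mouse genes measured in common myeloid progenitors (CMP). Import was represented by Tfrc, Tfr2, Steap3 and Slc11a2, storage by Fth1 and Ftl1, export by Slc40a1, and sensing by Aco1, Ireb2 and Fbxl5. All 10 were found in both libraries, and all 10 exceeded 1 TPM (transcripts per 1000000, a level per transcript length) in both, against 44.9% of the 21461 nuclear protein-coding genes. The ferritin messages stood far above the others, at 513.2 ± 17.4 TPM for Fth1 and 424.2 ± 134.2 TPM for Ftl1 (mean ± SD, n = 2 libraries), the transferrin receptor Tfrc followed at 56.2 ± 7.92 TPM, and the exporter and the sensors had values between 8.63 and 14.13 TPM.

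CMP are bone marrow cells that can give rise to the granulocyte and macrophage branch and to the megakaryocyte and red cell branch. The series holds 1 group, CMP as primary cells from male adult C57BL/6J mice aged 5 to 6 weeks, with 2 libraries of total RNA, each from a pool of 100 cells. RNA longer than 200 nucleotides was sequenced and spike-in RNAs were added. The labels number the libraries replicate 1 and replicate 2 and give each its own biosample but one donor identifier for both. Part of the spread between the 2 libraries may therefore be technical. The limma p-values below rest on that spread, with its estimate shared over all genes tested. All ratios to 1 anchor gene also share the values of that anchor. The exact binomial p-values rest on counting error alone. No other condition was analysed here, so the comparisons are between genes and between the 2 libraries. How the cells were isolated is left to protocol documents that were not analysed here.

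Most mammalian cells take up iron as iron-loaded transferrin, which binds the transferrin receptor and is carried into endosomes, where the iron is reduced by STEAP3 and moved into the cytosol by the transporter DMT1, the product of Slc11a2. Iron that is not used for haem or iron-sulphur clusters is held in ferritin, a shell of heavy and light chains, or leaves through ferroportin, the product of Slc40a1. The iron regulatory proteins IRP1, encoded by Aco1, and IRP2, encoded by Ireb2, bind hairpins called iron-responsive elements in several of these messages when iron is low. Binding in a 5′ untranslated region blocks translation, and binding in the 3′ untranslated region of the Tfrc message protects it from decay. FBXL5, an iron-binding subunit of a ubiquitin ligase, marks IRP2 for destruction when iron is plentiful. Red cell precursors take up more iron than most cells because of their need for haem.

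The hairpins are the sequences through which these genes are connected, so they were read from the GENCODE M21 transcripts (build GRCm38, which is mm10). The search, on the sense strand of each transcript, was for the letters CNNNNNCAGTGN followed by 5 bases that can pair with the 5 before the loop, G-T pairs allowed. It found 8 sites in 5 of the 10 genes, and 7 of the 8 had the full stem. In the lines below the capitals mark the 6-base loop, and the base written as the 7th in each line is the unpaired C.
Fth1, 5′ untranslated region, chr19:9982732-9982761, + strand: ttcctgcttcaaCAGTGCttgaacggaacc
Ftl1, 5′ untranslated region, chr7:45459778-45459807, − strand: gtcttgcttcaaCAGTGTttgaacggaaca
Slc40a1, 5′ untranslated region, chr1:45925464-45925493, − strand: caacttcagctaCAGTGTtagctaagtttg
Slc11a2, 3′ untranslated region, chr15:100395152-100395181, − strand: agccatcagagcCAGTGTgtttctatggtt
Tfrc site 1, 3′ untranslated region, chr16:32631219-32631248, + strand: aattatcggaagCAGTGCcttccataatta
Tfrc site 2, 3′ untranslated region, chr16:32631598-32631627, + strand: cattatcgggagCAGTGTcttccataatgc
Tfrc site 3, 3′ untranslated region, chr16:32631663-32631692, + strand: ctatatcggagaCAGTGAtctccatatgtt
Tfrc site 4, 3′ untranslated region, chr16:32631710-32631739, + strand: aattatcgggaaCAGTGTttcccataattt

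The Fth1 and Ftl1 hairpins were identical at 26 of 30 bases, while either one shared 13 of 30 with the Slc40a1 hairpin. The 4 Tfrc hairpins shared between 18 and 25 of 30 bases in pairs. The Slc11a2 hairpin matched only when 1 unpaired base was allowed in the 3′ side of its stem. A full match was found in 30 of 20062 genes with a 5′ untranslated region long enough to search, which is 0.15%, and in 129 of 20874 genes with such a 3′ region, which is 0.618%. With 1 unpaired base allowed the 3′ share was 1.12%. Tfrc was the 1 gene of those 20874 with 4 or more full matches in its 3′ region. No match was found in Tfr2, Steap3, Aco1, Ireb2 or Fbxl5, which says only that these letters are not in their searched transcripts. A match is a description of the letters and not a measurement of binding.

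The import genes had values between 16.08 and 61.81 TPM. Tfrc (ENSMUSG00000022797, chr16:32608920-32632794, + strand), the receptor that carries iron-loaded transferrin into the cell, had 50.61 TPM in replicate 1 and 61.81 TPM in replicate 2, from 3356 and 3614 expected counts. It stood at the 88.0th and 90.6th percentile of the 9627 nuclear protein-coding genes at 1 TPM or more in both libraries, whose median was 13.15 TPM in replicate 1 and 13.46 TPM in replicate 2. Tfr2 (ENSMUSG00000029716, chr5:137569840-137587481, + strand), a related transferrin receptor known from liver and red cell precursors, had 31.02 and 39.18 TPM, from 1772 and 2220 counts. Both receptors were therefore above the median detected gene in each library, and the lower Tfrc value exceeded the higher Tfr2 value.

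Steap3 (ENSMUSG00000026389, chr1:120190757-120272705, − strand), the endosomal ferrireductase, had 33.98 TPM in replicate 1 and 25.63 TPM in replicate 2. Slc11a2 (ENSMUSG00000023030, chr15:100387898-100425072, − strand), which moves ferrous iron across the endosomal membrane, had 16.08 and 25.92 TPM. The 2 genes differed in opposite ways between the libraries, and their values overlapped, the higher Slc11a2 value lying just above the lower Steap3 value. The summed level of the 4 import genes was 131.69 TPM in replicate 1 and 152.54 TPM in replicate 2.

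The storage genes were the highest of the 10. Fth1 (ENSMUSG00000024661, chr19:9980598-9985098, + strand), the heavy ferritin chain that oxidises iron on entry to the shell, had 500.92 TPM in replicate 1 and 525.55 TPM in replicate 2, from 7416.99 and 7586 counts. Ftl1 (ENSMUSG00000050708, chr7:45457944-45459884, − strand), the light chain that favours growth of the iron core, had 329.25 and 519.09 TPM, from 5261.39 and 7505.04 counts. The heavy chain was nearly equal in both libraries, whereas the light chain was lower in replicate 1, and the ranges of the 2 chains overlapped. Both were at or above the 98.6th percentile of detected genes in each library. Together they made up 82.5% of the summed TPM of the 10 genes in replicate 1 and 84.1% in replicate 2.

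The exporter Slc40a1 (ENSMUSG00000025993, chr1:45908068-45926523, − strand), the only known cellular iron exporter in mammals, had 14.13 TPM in replicate 1 and 10.93 TPM in replicate 2, from 946 and 710 counts. This placed it at the 52.7th and the 42.0th percentile, close to the median detected gene. In macrophages, which recycle iron from old red cells, this gene is known to be high. Of 15 macrophage markers 2 exceeded 1 TPM in both libraries, which is 13.3% beside 44.9% of all nuclear protein-coding genes. These were Csf1r at 10.79 and 4.63 TPM and Cd68 at 10.19 and 4.25 TPM. Another 6 (C1qa, C1qb, Marco, Vsig4, Spic and Mertk) had 0 counts in both libraries. So had 9360 of the 21461 nuclear protein-coding genes, so zeros were not particular to these markers. The summed level of the 15 markers was 24.75 TPM in replicate 1 and 12.43 TPM in replicate 2. Slc40a1 and the summed macrophage markers were thus both higher in replicate 1, although Hmox1, Mrc1 and Vcam1 among the markers had reads in replicate 2 alone. In pooled RNA, fewer cells of a type and less RNA per cell cannot be told apart, and the part of these markers in the Slc40a1 value was not tested.

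The 3 sensor genes were close to each other. Ireb2 (ENSMUSG00000032293, chr9:54863789-54912530, + strand), encoding IRP2, had 11.71 TPM in replicate 1 and 11.86 TPM in replicate 2, the closest agreement of the 10 genes. Aco1 (ENSMUSG00000028405, chr4:40143081-40198338, + strand), whose protein is a cytosolic aconitase when it carries an iron-sulphur cluster and IRP1 when it does not, had 10.31 and 8.69 TPM. Fbxl5 (ENSMUSG00000039753, chr5:43744615-43821638, − strand) had 8.63 and 14.12 TPM. Each sensor stood between the 34.1th and the 51.6th percentile of detected genes, and the Fbxl5 range enclosed both Ireb2 values.

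**Figure D1:**
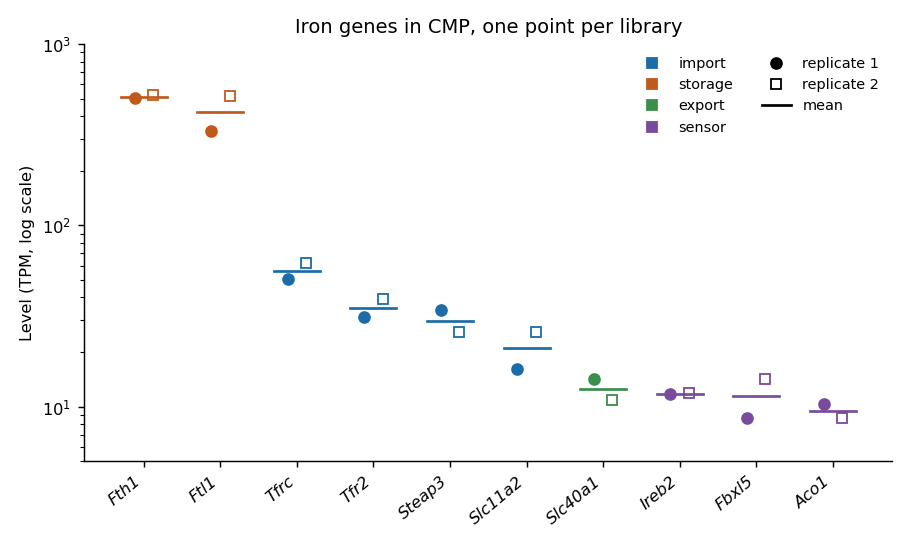
Level of each of the 10 iron genes in CMP, in TPM on a log axis; the circle is replicate 1, the open square replicate 2 and the line their mean, coloured by role. Fth1 and Ftl1 sit between 329.25 and 525.55 TPM, the import genes between 16.08 and 61.81 TPM, and the exporter and the sensors between 8.63 and 14.13 TPM.

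In order of mean level the genes ran Fth1, Ftl1, Tfrc, Tfr2, Steap3, Slc11a2, Slc40a1, Ireb2, Fbxl5 and Aco1. Of the 9 pairs of neighbours in this order, 3 did not overlap between their library values: Ftl1 above Tfrc, Tfrc above Tfr2, and Slc11a2 above Slc40a1. The other 6 neighbours overlapped, so their order is not resolved by 2 libraries. With 2 libraries an exact sign-flip test of 1 gene pair cannot go below a p of 0.5. For that reason the ratio to an anchor gene was tested with limma, which shares its estimate of the spread over all 10380 nuclear protein-coding genes with a mean of 1 TPM or more, on log2(TPM + 1) values that understate ratios of low genes.

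Against Tfrc, the gene by which cells take up transferrin iron, ferritin messages were several-fold higher and every other member was lower. The Fth1 to Tfrc ratio of TPM was 9.90 in replicate 1 and 8.50 in replicate 2, a log2 ratio of 3.17 ± 0.17 (SE; limma adjusted p = 2.85e-16). Over protein-coding transcripts alone the TPM ratio was 22.9 and 34.4, and in counts per 1000000 without length correction the log2 ratio was 1.10, Fth1 being higher in each. Ftl1 was also higher than Tfrc, with a log2 ratio of 2.86 ± 0.18 (limma adjusted p = 2.64e-14). All 9 members passed the test at an adjusted p under 0.05, 2 of them higher and 7 lower, but so did 89% of all genes tested, 5.54% of them higher and 83.4% lower. Lower levels than Tfrc were therefore the usual case for a detected gene.

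Among the lower genes, Tfr2 and Steap3 were nearest to Tfrc, Steap3 being the nearer in replicate 1 and Tfr2 in replicate 2. The Tfr2 to Tfrc ratio was 0.613 in replicate 1 and 0.634 in replicate 2, a log2 ratio of -0.67 ± 0.29 (limma adjusted p = 0.0306), which missed the threshold without the variance trend (limma adjusted p = 0.0781). Steap3 and Slc11a2 had log2 ratios of -0.90 ± 0.30 and -1.41 ± 0.31 to Tfrc. The importer to exporter comparison gave a log2 ratio of -2.08 ± 0.33 for Slc40a1 over Tfrc (limma adjusted p = 1.04e-06), or, in TPM, 3.58 times as much Tfrc as Slc40a1 in replicate 1 and 5.66 times in replicate 2, and 1.65 times in each over protein-coding transcripts alone. The sensors had log2 ratios to Tfrc of -2.15 ± 0.33 for Ireb2, -2.24 ± 0.33 for Fbxl5 and -2.44 ± 0.34 for Aco1. The 7 lower members all had negative ratios in both libraries, but 2 of them turned above Tfrc when transcripts without an annotated protein were left out, as described below.

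Against Fth1, 8 of 9 members were lower and none higher, beside 99.8% of all genes tested that passed, 98.9% lower and 0.867% higher. The member that did not pass was the partner chain: the Ftl1 to Fth1 ratio was 0.657 in replicate 1 and 0.988 in replicate 2, a log2 ratio of -0.31 ± 0.17 (limma adjusted p = 0.118). The 2 chains are therefore not resolved from each other here, which does not show that they are equal. The exporter had a log2 ratio of -5.26 ± 0.26 to Fth1.

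Against the sensor Ireb2, 6 of 9 members were higher and none lower, beside 61.1% of all genes tested that passed, 33.7% higher and 27.4% lower. The 6 were both ferritin chains and the 4 import genes, of which Tfrc and Slc11a2 did not pass over protein-coding transcripts alone, with a log2 ratio to Ireb2 of 0.59 for Tfrc (limma adjusted p = 0.0580). Slc11a2 was the closest to the threshold, with a log2 ratio of 0.75 ± 0.25 (limma adjusted p = 0.0340), and it missed the threshold under other filters on low values, its adjusted p being 0.0510 at a mean of 5 TPM or more. The other sensors and the exporter did not pass. Their log2 ratios to Ireb2 were -0.29 ± 0.27 for Aco1 (limma adjusted p = 0.376), -0.08 ± 0.28 for Fbxl5 (limma adjusted p = 0.807) and 0.07 ± 0.26 for Slc40a1 (limma adjusted p = 0.819). Over protein-coding transcripts alone Aco1 was lower than Ireb2, with a log2 ratio of -0.83 (limma adjusted p = 0.0397), and the Slc40a1 ratio turned negative without passing. In counts per 1000000 without length correction all 3 were lower than Ireb2, with log2 ratios of -1.39 for Aco1 (limma adjusted p = 4.67e-07), -1.03 for Fbxl5 (limma adjusted p = 2.95e-05) and -0.72 for Slc40a1 (limma adjusted p = 0.00148).

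**Figure D2:**
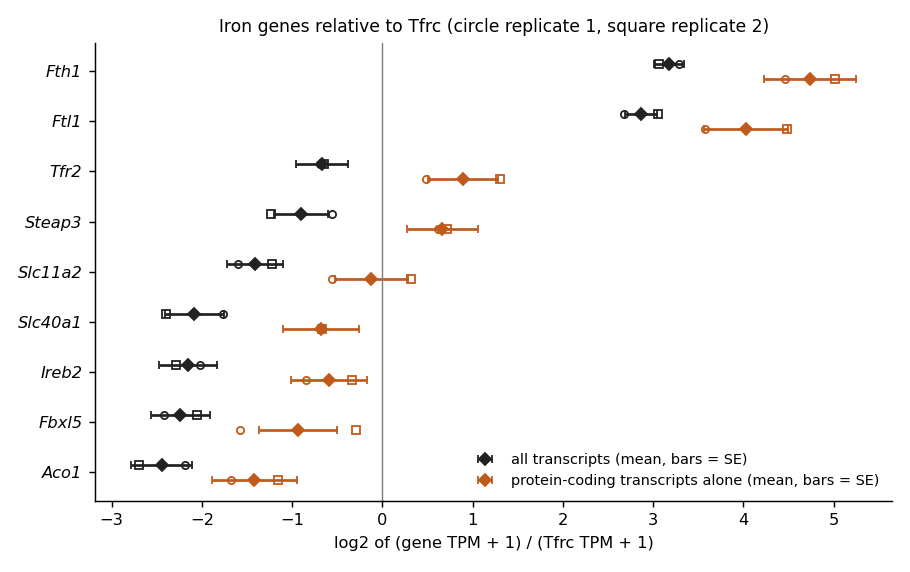
Log2 ratio of each iron gene to Tfrc, from TPM + 1, over all transcripts (black) and over protein-coding transcripts alone (orange); diamonds with bars are the mean ± SE, circles replicate 1 and squares replicate 2. Over all transcripts Tfr2 and Steap3 lie below 0, at -0.67 and -0.90, and over protein-coding transcripts alone they lie above it, at 0.90 and 0.66.

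The transcript tables show which forms carried these values, and here Tfrc stood out. Protein-coding transcripts took 43.1% of the Tfrc TPM in replicate 1 and 24.7% in replicate 2, the rest being retained-intron forms, that is, transcripts annotated with an intron left in. Among all 9627 detected genes the median protein-coding share was 100% in both libraries, and 14.7% of genes in replicate 1 and 6.87% in replicate 2 had a lower share than Tfrc. The full-length protein-coding form of 4890 nucleotides had 20.2 TPM in replicate 1 and 10.9 TPM in replicate 2, while a retained-intron form of 3527 nucleotides had 17.75 and 32.8 TPM. Both forms hold all 4 hairpins, and transcripts with the hairpins took 75.0% of the Tfrc TPM in replicate 1 and 70.7% in replicate 2. Short forms weigh heavily in TPM: a retained-intron form of 571 nucleotides had 11.03 and 8.13 TPM from 96.51 and 68.23 counts. By expected counts, protein-coding transcripts took 60.4% of Tfrc in replicate 1 and 33.4% in replicate 2. Transcripts with the hairpins took 95.4% and 91.8% of its counts.

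With protein-coding transcripts alone, an alternative chosen after the transcript shares were seen, Tfrc had 18.55 ± 4.64 TPM (SD, n = 2), against 56.2 ± 7.92 TPM over all its transcripts. Only 4 of the 9 other members then differed from Tfrc, beside 63.1% of the 9912 genes tested: Fth1, Ftl1 and Tfr2 were higher and Aco1 was lower. Tfr2 had a log2 ratio of 0.90 to Tfrc in that fit (limma adjusted p = 0.0360) and Steap3 one of 0.66 (limma adjusted p = 0.128). Slc11a2, Slc40a1, Ireb2 and Fbxl5 kept ratios below 0 but did not pass. The place of Tfrc among the import genes thus depends on which transcripts are counted, while both ferritins were above it either way. In the same setting 9 of 9 members were lower than Fth1, beside 99.8% of genes that differed from it. The log2 ratio to Fth1 was -0.71 for Ftl1 (limma adjusted p = 0.00307). This setting left out Ftl1 transcripts without an M21 identifier, whose class is not known. It kept 270.62 of 329.25 Ftl1 TPM in replicate 1 and 363.6 of 519.09 TPM in replicate 2. Fth1 has 1 transcript and lost nothing. The Ftl1 to Fth1 ratio of this setting therefore does not resolve the order of the 2 chains. Against Ireb2, 5 of 9 members passed in this setting, 4 higher and 1 (Aco1) lower, beside 61.5% of genes.

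For Ftl1, the annotated protein-coding form of 968 nucleotides held 82.2% of the TPM in replicate 1 and 70.0% in replicate 2. The rest went to transcripts whose identifiers are not in the M21 annotation and that were not searched for the hairpin. A form of 604 nucleotides among them had 25.12 TPM in replicate 1 and 136.46 TPM in replicate 2, so much of the library difference of this gene lay in it. Fth1, Tfr2 and Ireb2 each have 1 transcript in the tables.

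Slc11a2 is made in forms with and without a hairpin in the 3′ untranslated region. The form of 4415 nucleotides with the hairpin had 9.47 TPM in replicate 1 and 8.92 TPM in replicate 2, and the form of 3025 nucleotides without it had 5.03 and 10.31 TPM. The hairpin form was thus nearly equal in both libraries while the other was higher in replicate 2, and the hairpin form took 65.3% of the protein-coding TPM in replicate 1 and 46.4% in replicate 2. A retained-intron form of 709 nucleotides added 0.61 and 6.69 TPM. For Slc40a1, all transcripts with a value hold the hairpin, and its protein-coding form took 93.4% and 84.6% of the TPM.

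The remaining genes differed in which form was used. Steap3 came wholly from protein-coding transcripts, of 2752 nucleotides with 21.54 and 13.44 TPM and of 5158 nucleotides with 12.45 and 12.19 TPM, so its library difference lay in the shorter one. Fbxl5 had 5.54 TPM in replicate 1 and 1.31 TPM in replicate 2 in a form of 2517 nucleotides, while a form of 2857 nucleotides had 0 and 8.77 TPM. The protein-coding form of Aco1 had 6.13 and 6.30 TPM, and its remaining TPM came from short non-coding transcripts, 1 of 714 nucleotides in replicate 1 and another of 638 nucleotides in replicate 2. The estimates divide shared reads between forms, so a form at 0 in 1 library and not in the other is not shown to be absent.

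**Figure D3:**
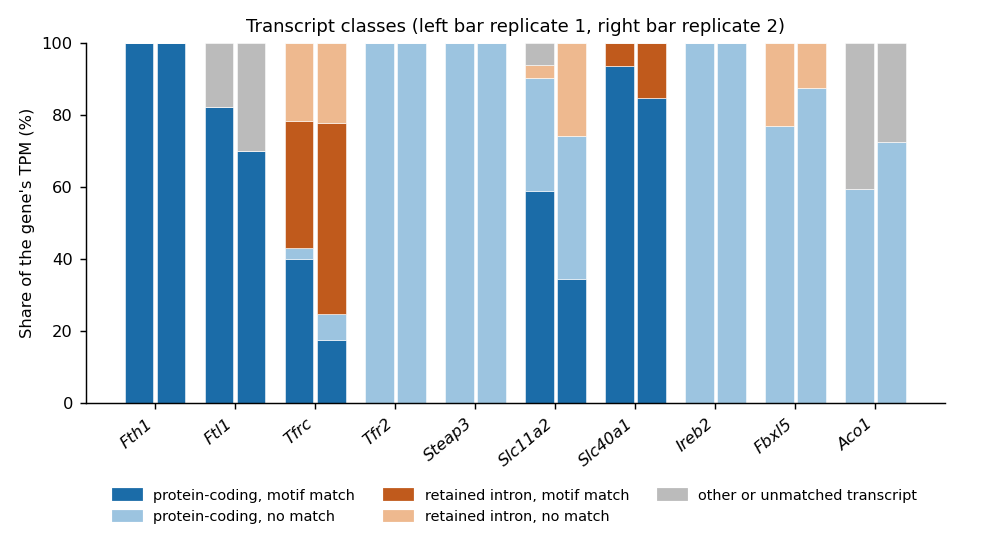
Share of each iron gene's TPM, in percent, taken by transcript classes in replicate 1 (left bar) and replicate 2 (right bar) of each pair; dark colours mark classes with a match to the hairpin letters. Retained-intron forms make up 56.9% and 75.3% of Tfrc, while Fth1, Tfr2, Steap3 and Ireb2 come from protein-coding transcripts alone.

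Ferritin genes have near-identical copies in the genome, between which reads are divided by estimate. Ftl1-ps1, on chromosome 13 and annotated as protein-coding, had 141.86 and 92.6 counts (replicate 1, replicate 2), and Fth-ps2, a processed pseudogene on chromosome 6, had 0 and 100. Copies took 2.63% and 1.23% of the reads of Ftl1 and its copies, and 0% and 1.30% of those of Fth1 and its copies. The authors' posterior SD of the Ftl1 count was 13.83 and 11.66 counts, which is small beside the Ftl1 counts. The X-linked Fthl17 genes had 0 counts in both libraries. Adding the estimated counts of the copies gave a log2 ratio of Ftl1 over Fth1 of -0.29, against -0.31 without them. Copies under other symbols were not looked for, and the reads were not divided anew.

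The 2 libraries were then set against each other with an exact binomial test on rounded expected counts with TMM-scaled library sizes, which compares these libraries and no conditions. Of the 10 members 7 differed at an adjusted p under 0.05 (Benjamini-Hochberg over all genes), 2 higher and 5 lower in replicate 1, beside 78.2% of the 13616 genes tested and 74.2% of the 5032 genes with at least as many counts as the lowest member. A difference beyond counting error between the 2 pools was therefore the usual case, and the members' count is close to that background. Fth1, Ireb2 and Aco1 did not pass, with log2 differences of replicate 1 over replicate 2 of -0.01 (exact binomial adjusted p = 0.822), 0.01 (0.812) and 0.07 (0.470).

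The genes higher in replicate 1 were Slc40a1, with a log2 difference of 0.44 (exact binomial adjusted p = 1.81e-09), and Steap3, with 0.34 (exact binomial adjusted p = 3.95e-14). Those lower in replicate 1 were Fbxl5 with -0.68, Ftl1 with -0.49, Slc11a2 with -0.33, Tfr2 with -0.30 and Tfrc with -0.08. The 2 import genes of the endosomal step, Steap3 and Slc11a2, thus differed in opposite directions, as did the exporter and both transferrin receptors. The largest of these differences, that of Fbxl5, is under 2-fold. With total counts in place of TMM the median of all genes moved to -0.23, against -0.03 under TMM, and 9 of 10 members differed. Fth1 and Ireb2 were then lower in replicate 1, at -0.21 (exact binomial adjusted p = 8.4e-18) and -0.19 (exact binomial adjusted p = 0.0012), and Aco1 turned negative without passing.

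**Figure D4:**
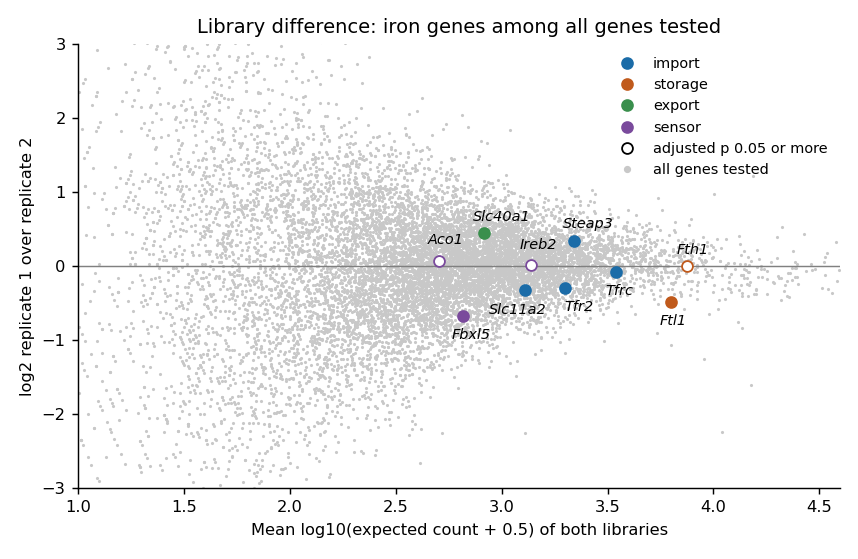
Log2 difference of replicate 1 over replicate 2 against the mean log10 expected count of both libraries, for all genes tested within the axis limits (grey) and for the 10 iron genes (coloured by role, open where the adjusted p was 0.05 or more). The iron genes lie within the grey cloud, from -0.68 for Fbxl5 to 0.44 for Slc40a1.

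The rest of the iron pathway was described through 9 lists of 84 genes outside the 10, of which 79 were found by symbol. Of these, 54 exceeded 1 TPM in both libraries, which is 68.4%, beside 44.9% of all nuclear protein-coding genes, and the share ran from 1 of 11 genes of the hepcidin axis to all genes found of 4 lists. All 20 genes found of iron-sulphur cluster assembly exceeded 1 TPM in both libraries. Their median level was 31.64 TPM in replicate 1 and 25.75 TPM in replicate 2, beside 13.15 and 13.46 TPM over the detected nuclear protein-coding genes. They were led by Hspa9, the mitochondrial chaperone of the pathway, at 108.05 and 77.87 TPM, and by Glrx5, a mitochondrial glutaredoxin that passes clusters on, at 84.11 and 95.96 TPM. Bola3 had 41.64 and 51.77 TPM, and Isca2 had 35.83 and 46.15 TPM, both acting late in mitochondrial cluster assembly.

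Mitochondrial iron entry and export was complete as well, with 6 of 6 genes. Mitoferrin-1, Slc25a37, the importer that red cell precursors use, had 23.95 and 18.37 TPM. Its relative Slc25a28, which acts in other cells, had 20.13 and 13.24 TPM, and the transporter Abcb8 had 18.46 and 22.36 TPM. Of the cytosolic carriers and the ferritin turnover genes, 5 of 6 were detected. The iron chaperones that deliver iron to ferritin had 138.84 and 101.26 TPM for Pcbp2 and 93.67 and 99.11 TPM for Pcbp1. Bola2 had 67.25 and 75.43 TPM and Glrx3, its partner, had 51.94 and 52.20 TPM. Ncoa4, the receptor that takes ferritin to lysosomes, had 47.92 and 43.69 TPM, while mitochondrial ferritin, Ftmt, had 0 counts in both libraries.

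The partners of FBXL5 in its ligase were detected in 4 of 4 cases. Skp1a, the adaptor, had 98.47 and 74.85 TPM, the scaffold Cul1 had 48.56 and 46.10 TPM, the RING subunit Rbx1 had 27.08 and 40.90 TPM, and Herc2, a ligase that acts on FBXL5 itself, had 4.49 and 8.15 TPM. The first 3 lay above Fbxl5 in both libraries and Herc2 lay below it in both. The RNA-binding decay factors that act on AU-rich or stem-loop messages were present in 6 of 6 cases. Zfp36l2 led with 84.58 and 129.65 TPM, Rc3h1 (Roquin-1) had 26.41 and 17.84 TPM, Zfp36 had 10.29 and 33.49 TPM, and Zfp36l1 had 13.07 and 24.53 TPM.

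Messages of 7 other genes, listed because iron-responsive elements have been reported for them in some species, were detected in 5 cases. Whether these mouse messages hold the hairpin is not reported here. Sdhb had 53.43 and 51.11 TPM, Ndufs1 had 34.95 and 43.43 TPM, and Cdc42bpa had 6.47 and 12.84 TPM. Sdhb and Ndufs1 encode subunits of mitochondrial respiratory enzymes. Epas1, a hypoxia-inducible transcription factor, and Alas2, the red cell form of the first enzyme of haem synthesis, had 0 counts in both libraries, which allows up to 0.104 and 0.114 counts per 1000000 (3 counts of each total, for counting error only).

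Of the other import genes 4 of 11 were detected, which is 36.4% beside 44.9% of all nuclear protein-coding genes, and their median was 0.11 and 0.24 TPM beside 0.32 and 0.56 TPM. Transferrin, listed there under the symbol Tf without an entry, is not counted among the 11 and is given below as Trf. Snx3, which returns the transferrin receptor to the surface, had 78.29 and 71.07 TPM, Mcoln1, a lysosomal cation channel, had 27.12 and 20.03 TPM, and the metal importers Slc39a8 and Slc39a14 had 8.60 and 6.45 TPM and 3.96 and 1.71 TPM. The relatives of Steap3, which are Steap1, Steap2 and Steap4, had 0 counts in both libraries, so Steap3 was the only family member with reads. Hfe, the haemochromatosis gene, had 4 counts in replicate 1 alone.

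The oxidases that work beside ferroportin and the exporters of haem were detected in 3 of 8 cases, which is 37.5%. Abcg2, an exporter of porphyrins, had 19.71 and 12.35 TPM, the constitutive haem oxygenase Hmox2 had 17.67 and 13.00 TPM, and the haem exporter Flvcr1 had 3.14 and 4.79 TPM. The ferroxidases Heph, Hephl1 and Cp, which oxidise iron as ferroportin releases it, had 0 counts in both libraries, as had Flvcr2, a relative of Flvcr1. The inducible haem oxygenase Hmox1 had 73 counts in replicate 2 after 0 in replicate 1. Of the hepcidin axis, by which the liver sets body iron, 1 of 11 genes was detected, Smad4 at 17.95 and 16.34 TPM, and 7 had 0 counts in both libraries, among them Hamp (hepcidin), Bmp6, Erfe and Tmprss6.

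**Figure D5:**
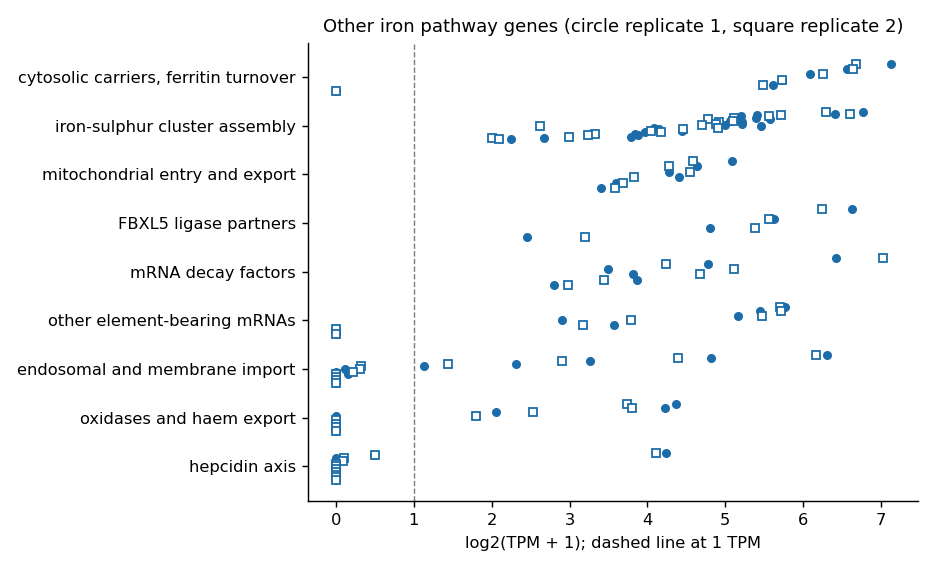
Levels of the other iron pathway genes as log2(TPM + 1), one row per list, with a circle for replicate 1 and a square for replicate 2 of each gene; the dashed line is at 1 TPM. Cluster assembly, mitochondrial entry, FBXL5 partners and decay factors lie wholly to its right, while most genes of the hepcidin axis lie at 0.

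Marker lists were read as a description of the cells. They cannot tell CMP from other progenitors, since no other progenitor was measured here. All 6 CMP markers exceeded 1 TPM in both libraries, beside 44.9% of all nuclear protein-coding genes. They were led by Mpo at 385.91 and 386.11 TPM and Myb at 208.5 and 218.88 TPM. Of the 13 markers of maturing red cells that were found, 10 exceeded 1 TPM in both, which is 76.9%. Their summed level was 290.85 TPM in replicate 1 and 235.95 TPM in replicate 2, and Alas2 had 0 counts. Ermap led at 112.97 and 61.80 TPM, with Tspo2 at 47.33 and 39.29 TPM. The summed red cell markers and Steap3 were higher in replicate 1, while Tfrc, Tfr2 and Slc11a2 were higher in replicate 2, and the part of red cell precursors in the import values was not tested. Of the 7 hepatocyte markers found, 1 exceeded 1 TPM in both libraries, which is 14.3%. It was transferrin itself (Trf) at 19.1 and 4.92 TPM. Apoa1 had 0 and 2.77 TPM, and Alb and Hamp had 0 counts.

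Replicate 1 held 28916263 expected counts and replicate 2 held 26426710, of which nuclear protein-coding genes took 43.9% and 45.3%. A single ribosomal repeat gene, Gm42418, took 38.1% and 33.0%. The 10 iron genes together took 0.0855% and 0.105% of the counts, and the least covered, Aco1, still had 513 and 497 counts.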

How the data were processed

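For each library the authors deposited estimates by gene and by transcript, made from alignments to the mm10 transcriptome (GENCODE M4), per the deposited file lists. The sources used here name neither the aligner nor the quantifier. The deposited expected counts divide reads shared between genes or transcripts, and the deposited TPM values are per length and per 1000000 over all entries, tRNA and spike-ins included. The deposited FPKM values were not used, nor were the deposited interval bounds, a signal column, beyond the posterior SD of counts. The deposited percent values give a transcript's share of its gene, and shares were recomputed from TPM. Lengths are in bases.

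Gene identifiers, their versions dropped, were looked up in GENCODE M21, which named 42462 of 43346 genes; 2129 of 103639 transcripts had no M21 identifier. Ratios to Tfrc, Fth1 and Ireb2 were tested with limma 3.58.1 (R 4.3.3) on log2(TPM + 1), with a variance trend, over genes with a mean of 1 TPM or more. Library differences used TMM from edgeR 4.0.16 and an exact binomial test on rounded counts, with 10 or more counts in a library. All tests were two-sided, with Benjamini-Hochberg adjustment over all genes of a fit and a threshold of 0.05, and were tested on simulated data. Alternatives included DESeq2 1.42.0 size factors. Depth was 28916263 and 26426710 counts, and counting intervals and floors cover counting error only. The members and lists were chosen with earlier results of these data known. Named were all members, the 4 highest genes and up to 4 genes below 1 TPM of each pathway list, the 2 highest of each marker list, and ferritin copies with 10 or more counts; Hmox1 and Ncoa4 were added after their values were seen, and some genes that the rule names are not reported here. Listed symbols without an entry are older or alternative names, such as Tf for Trf. Not all were read under their other name: Trf is not counted among the import genes, and Fam96b of cluster assembly was not read.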

Additional observations from a re-analysis of the deposited data

How the results depend on the processing

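Of 132 recomputed tests of gene pairs, 114 kept their direction and their side of the threshold, 9 lost a pass, 4 gained one and 5 reversed. Of 50 recomputed library differences of members, 46 kept both, 1 gained a pass and 3 reversed. Leaving out 1 library cannot test stability, because the value left is 1 of the 2 behind the mean. Without replicate 1 the log2 ratios to Ireb2 changed sign for Fbxl5 (0.23) and Slc40a1 (-0.11). The protein-coding transcripts alone, chosen after seeing the data, gave 4 of 9 members differing from Tfrc, against 9 over all transcripts; in that setting log2 ratios to Tfrc reversed for Tfr2 (0.90) and Steap3 (0.66), that of Slc40a1 over Ireb2 reversed (-0.084), and adjusted p-values to Tfrc were 0.803 for Slc11a2, 0.151 for Slc40a1, 0.209 for Ireb2 and just above the threshold for Fbxl5. Counts per 1000000 without length correction, which do not compare levels per length, reversed Slc40a1 over Ireb2 (-0.72) and Slc11a2 over Ireb2 (-0.083). Among library differences, total counts reversed Ireb2 (-0.19) and Aco1 (-0.13), and the nuclear protein-coding genes alone reversed Fth1 (0.000506), each near 0 under TMM. The cause was not tested beyond the construction of each setting. TPM rescaled over nuclear protein-coding genes raised every level together, Fth1 to 1332.5. Slc11a2 over Ireb2 missed the threshold in 4 further settings, at adjusted p-values of 0.0502 to 0.103. No paired analysis was possible because the series has 1 group.

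Limits are those of 2 libraries of 1 cell type, each of 100 cells. A ratio of message levels says nothing of protein, and iron regulatory proteins act largely on translation and decay, which were not measured. Transcript forms rest on estimates from shared reads and on an annotation release other than the one searched for hairpins. Each member had 497 or more counts, and 7 of 10 differed between the pools by more than counting error; for genes at 0 the depth sets the limit.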
